A study of Mus musculus with 10 samples.

Results

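Adenylate kinases move phosphate groups between adenine nucleotides: they convert ATP and AMP into ADP and back, and so set how much AMP appears when a cell draws on its ATP. The family members differ in where they work in the cell, and AMP in turn is read by AMP-activated protein kinase. 5 genes are described here, Ak1, Ak3, Ak4, Ak5 and Ak7, of 18193 genes that had at least 1 probe set with a single gene symbol on the array. A probe set, a group of short probes for 1 transcript, was taken as a member where the platform annotation gave exactly 1 of these symbols, which gave 13 probe sets. The brightest probe set of a gene, by its mean over all 10 arrays, stands for it below. For Ak4 this choice was narrow, since probe set 1450387_s_at averaged 5.32 and the next, 1421831_at, 5.28 on the log2 scale. The set was drawn up with results of these arrays known, around Ak1, whose level with the antisense oligonucleotide stood out. The Ak1 difference is therefore given as a description, with no test.

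The RNA came from BMEL cells, a line of bipotential mouse embryonic liver cells able to take on hepatocyte or bile duct features. For the 5 antisense arrays the cells had received an oligonucleotide against miR-30a made with locked nucleic acid (LNA), and for the 5 scrambled arrays a scrambled control oligonucleotide. Cells of both groups went through transfection with Oligofectamine, so no array shows untransfected cells, and miR-30a itself was not measured on these arrays. Nothing in the labels ties a replicate to a culture of its own. The p-values therefore take in the spread between these 10 samples alone, and that spread may be technical.

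The oligonucleotide is defined by the microRNA it targets, whose sequence is shown because it fixes which transcripts could pair with it. The labels name miR-30a without an arm. RefSeq (GRCm38.p6) places its 5p arm at chr1:23272274-23272295 and its 3p arm at chr1:23272315-23272336, both on the plus strand. In the sequences below, written 5′ to 3′, the capitals mark the seed, bases 2 to 8, which leads the pairing with a target.
mmu-miR-30a-5p: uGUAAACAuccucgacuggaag
mmu-miR-30a-3p: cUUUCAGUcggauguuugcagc
mmu-miR-30c-5p: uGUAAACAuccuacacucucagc
mmu-miR-30e-5p: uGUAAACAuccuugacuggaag
mmu-miR-384-5p: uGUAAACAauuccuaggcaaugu
The 4 names with the seed GUAAACA are those of the table used that share it with miR-30a-5p. That table may not hold every mouse microRNA with this seed, so the 4 are not a full list of the family. The 3p arm carries another seed. Transcript ends were not analysed here, so whether a member holds a match to either seed is not known from these data.

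Ak1, the cytosolic adenylate kinase that is abundant in muscle, brain and erythrocytes, lies at chr2:32621758-32635058 (GRCm38.p6). Its brightest probe set, 1422184_a_at, read 7.38, 7.46, 7.41, 7.30 and 7.32 on antisense arrays 1 to 5, against 6.49, 6.20, 6.36, 6.40 and 6.36 on scrambled arrays 1 to 5, in deposited log2 expression. Every antisense array lay above every scrambled array, and the lowest antisense array was 7.30 where the highest scrambled array was 6.49. The means were 7.37 ± 0.066 in antisense arrays and 6.36 ± 0.11 in scrambled arrays (SD, n = 5 each), a difference of 1.01 (SE 0.054) with a 95% interval of 0.89 to 1.13. On a linear scale the antisense arrays were 2.01-fold higher, with an interval of 1.86 to 2.19. Neither interval allows for the choice of Ak1 by this same difference, and both take in the spread between these 10 samples alone. In these bulk samples, more cells that express Ak1 and more Ak1 RNA per cell cannot be told apart. Within replicate numbers the difference ran between 0.89 and 1.26, so all 5 pairs differed in the same direction. The scatter inside each group was small beside this difference.

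The other Ak1 probe set, 1423988_at, was dim, and its groups overlapped. It read 3.51, 3.41, 3.31, 3.39 and 3.32 on antisense arrays, against 3.29, 3.18, 3.37, 3.42 and 3.34 on scrambled arrays. Their means differed by 0.07, and the antisense array was higher in 2 of 5 pairs. A filter level of 4.559, the 40% quantile of probe set means, was set as the least mean for a test, and all 10 values were lower than that. The Ak1 difference thus rests on 1 probe set, and averaging both probe sets gave 0.54 (SE 0.046). The files do not say which part of the transcript either probe set reads.

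**Figure D1:**
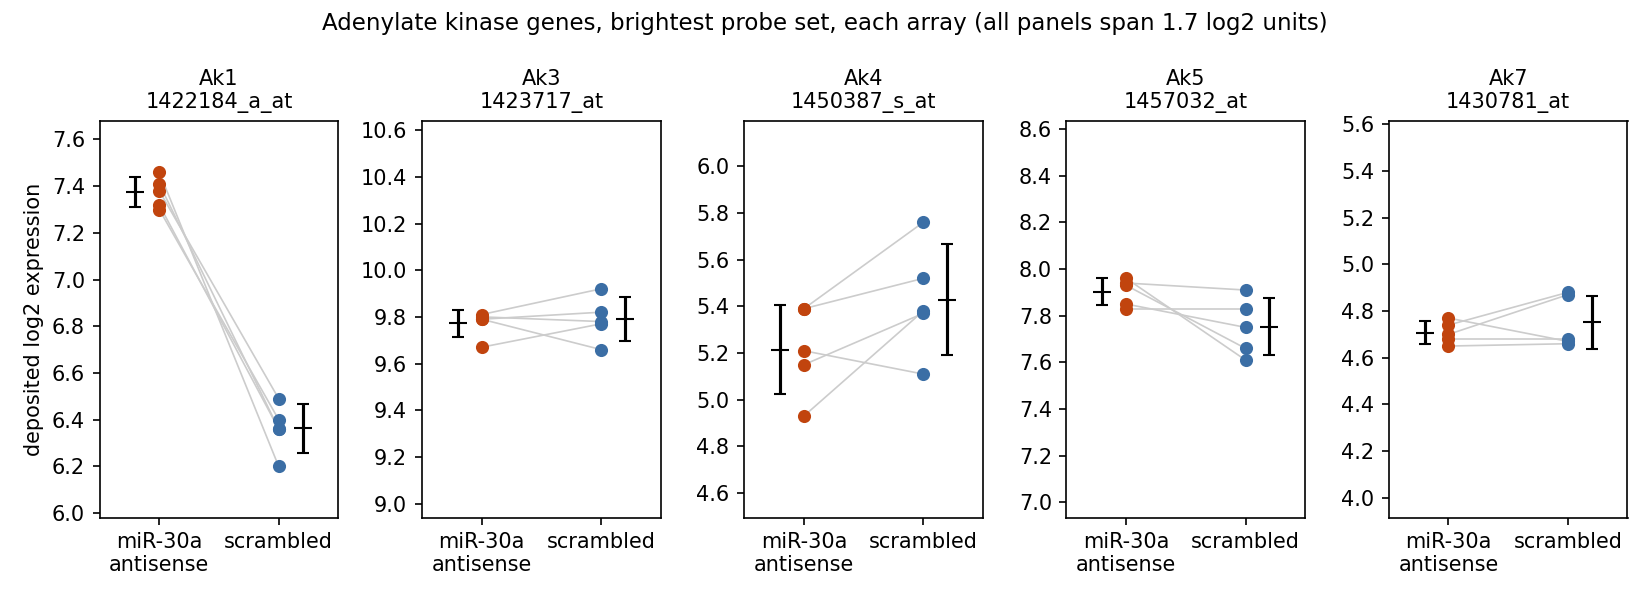
Deposited log2 expression of the brightest probe set of each adenylate kinase gene on every array, with antisense arrays on the left and scrambled arrays on the right of each panel. Points are arrays, grey lines join equal replicate numbers, and black marks give mean ± SD (n = 5 each); the groups are apart for Ak1, at 7.30 to 7.46 against 6.20 to 6.49, and overlap for the other 4 genes.

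RefSeq gives Ak1 4 start sites within the promoter table, all on the plus strand. In mouse, transcription from an alternative first exon gives a membrane-associated form whose promoter has been reported to respond to p53. The windows span 250 bases before to 50 bases after a start. The outermost one and the one that holds the letters TATAAA are shown, since Ak1 is the member whose level differed and the arrays do not tell its starts apart. Capitals mark TATAAA, which begins 21 bases after the annotated start in that window, whereas a TATA box lies before the start it serves.
Ak1 outermost start, chr2:32621508-32621807: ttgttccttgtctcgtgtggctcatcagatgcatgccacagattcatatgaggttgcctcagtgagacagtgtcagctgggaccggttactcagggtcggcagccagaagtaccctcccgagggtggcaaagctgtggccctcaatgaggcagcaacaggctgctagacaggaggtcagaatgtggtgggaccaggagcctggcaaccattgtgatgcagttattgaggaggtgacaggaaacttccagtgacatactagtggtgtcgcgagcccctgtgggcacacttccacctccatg
Ak1 start with TATAAA, chr2:32625187-32625486: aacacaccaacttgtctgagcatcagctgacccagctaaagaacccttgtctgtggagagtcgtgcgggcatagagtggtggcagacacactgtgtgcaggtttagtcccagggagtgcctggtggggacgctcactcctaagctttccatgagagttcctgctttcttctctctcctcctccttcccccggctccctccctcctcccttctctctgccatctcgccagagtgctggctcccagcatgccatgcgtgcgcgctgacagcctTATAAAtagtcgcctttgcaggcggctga
TATAAA, searched on both strands, occurred in 1 of 10 windows of 4 members and in 13.6% of all 32851 windows of the table. The p53 half-site consensus, whose pattern reads the same on both strands, occurred in 0 of the 10 windows and in 8.36% of all windows. A count of 0 among so few windows lies near that share, and some Ak4 windows overlap. Which Ak1 window, if any, holds the reported promoter was not determined, and sites outside the windows were not searched. Ak5 had no window in the table.

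The mitochondrial members come next. Ak3, at chr19:28995053-29048080, encodes the matrix enzyme that passes phosphate between GTP and AMP. Its brightest probe set, 1423717_at, read 9.81, 9.67, 9.80, 9.79 and 9.79 on antisense arrays, against 9.92, 9.77, 9.78, 9.66 and 9.82 on scrambled arrays. The antisense values fell inside the scrambled range. The difference of -0.02 (SE 0.050) had a 95% interval of -0.13 to 0.09 and did not pass the test over 12633 genes (limma adjusted p = 0.932). Probe sets 1423718_at and 1432436_a_at differed by -0.01 and 0.01, so all 3 Ak3 probe sets lay near 0. For the brightest probe set the 95% interval was 0.916-fold to 1.06-fold. The log2 intervals of the other 2 were wider, at -0.20 to 0.18 for 1423718_at and -0.13 to 0.15 for 1432436_a_at.

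Ak4, at chr4:101416478-101467771, encodes a matrix protein related to Ak3 with little measured kinase activity, and is known as a gene induced under low oxygen. Probe set 1450387_s_at read 5.39, 4.93, 5.21, 5.15 and 5.39 on antisense arrays, against 5.76, 5.38, 5.11, 5.37 and 5.52 on scrambled arrays. The antisense array was lower in 4 of 5 pairs, but the groups overlapped. The difference was -0.21 (SE 0.11), with a 95% interval of -0.46 to 0.03 and a limma adjusted p of 0.465. Its suffix marks a probe set whose probes can match more than 1 transcript. The Ak4 probe sets disagreed: 1421830_at differed by -0.19 with the antisense array lower in every pair, while 1421831_at differed by 0.12 with the antisense array higher in 4 of 5 pairs, and 1421829_at by 0.02. None of these 4 passed the test over 22744 probe sets (limma adjusted p from 0.495 to 0.96, and from 0.0976 to 0.93 with the replicate block). The fifth Ak4 probe set, 1438395_at, averaged 3.03 in antisense arrays and 3.06 in scrambled arrays and lay under the filter level. No direction can be given for Ak4 from these probe sets.

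Ak5, at chr3:152462815-152668406, is known as the adenylate kinase of brain. Probe set 1457032_at read 7.93, 7.94, 7.85, 7.83 and 7.96 on antisense arrays, against 7.66, 7.91, 7.75, 7.83 and 7.61 on scrambled arrays. Scrambled arrays 2 and 4 reached into the antisense range, and scrambled arrays 1, 3 and 5 lay below it. The difference was 0.15 (SE 0.057), or 1.11-fold, with a 95% interval of 0.02 to 0.27. The unadjusted limma p was 0.0229 and the adjusted p 0.278, so Ak5 did not pass. The second probe set, 1426339_at, differed by 0.13 and read 6.91, 7.16, 6.90, 6.90 and 6.88 on antisense arrays, against 6.84, 6.78, 6.95, 6.67 and 6.84 on scrambled arrays. Both Ak5 probe sets had the antisense array higher in 4 of 5 pairs.

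Ak7, at chr12:105703858-105782447, encodes an adenylate kinase of motile cilia. Its single probe set, 1430781_at, read 4.68, 4.74, 4.65, 4.77 and 4.70 on antisense arrays, against 4.68, 4.88, 4.66, 4.67 and 4.87 on scrambled arrays, just above the filter level of 4.559. The groups overlapped, and scrambled arrays 2 and 5 lay above every antisense array. The difference of -0.04 (SE 0.053) did not pass (limma adjusted p = 0.817).

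Of the 13 probe sets, 11 passed the filter, and the groups did not overlap for 1, that of Ak1. The groups were apart for 2.53% of all 34945 probe sets with a single symbol and for 3.23% of those above the filter. Since that contrast led to Ak1, the count is given only as a description. Of the 4 genes other than Ak1, 0 passed in limma (0 with the replicate block as well, and 1, Ak5, at an unadjusted p under 0.05), where 1.53% of all genes passed, 1.16% higher and 0.372% lower in antisense arrays. Of their 10 probe sets above the filter, 0 passed with or without the replicate block (unblocked limma adjusted p from 0.349 to 0.988), where 0.686% and, with the block, 1.69% of all probe sets passed.

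**Figure D2:**
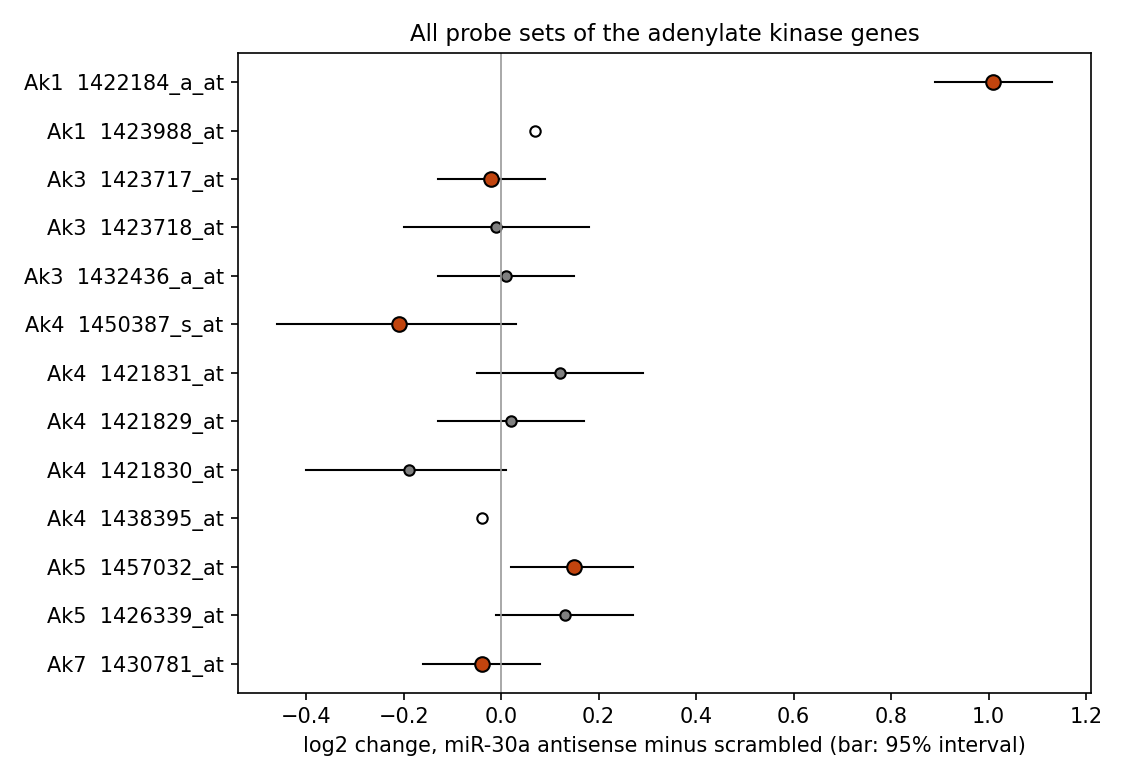
Log2 difference of all 13 adenylate kinase probe sets, antisense minus scrambled, with 95% intervals from the limma fit over probe sets. Large coloured points are the brightest probe set of each gene, small grey points the others, and open points the 2 probe sets under the filter level, which have no interval; Ak1 1422184_a_at stands at 1.01 and the rest lie between -0.21 and 0.15.

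**Figure D3:**
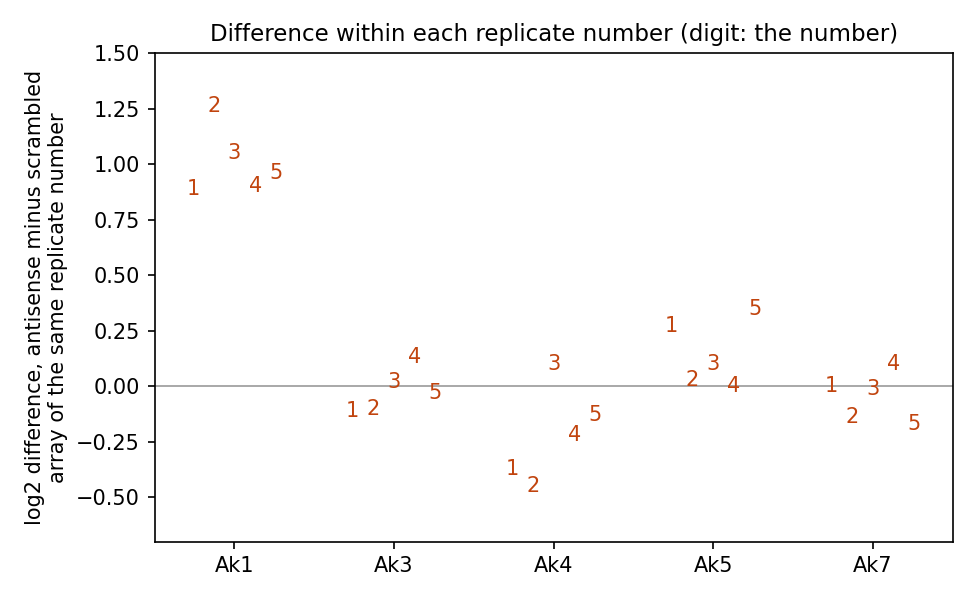
Log2 difference between the antisense and the scrambled array of the same replicate number, for the brightest probe set of each gene; the digits are the replicate numbers. Ak1 differences ran from 0.89 to 1.26, and those of Ak4 from -0.45 to 0.10.

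Correlations between members across arrays ran both ways. As a description over 10 arrays that share their group and their processing, Ak1 correlated at 0.594 with Ak5 and, once the mean of each group was subtracted, at -0.443. Ak3 and Ak4 correlated at 0.677, and at 0.708 with group means subtracted. Pairs of probe sets of 1 gene, with group means subtracted, correlated from -0.172 to 0.526 for the 3 pairs of Ak3, from -0.405 to 0.606 for the 6 pairs of Ak4 above the filter, and at -0.153 for Ak5.

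The tested genes whose levels over the 10 arrays were most like those of Ak1 were Ptpn14, a protein tyrosine phosphatase gene (Pearson r = 0.979), the serine protease gene Prss22 (0.969), the membrane transporter gene Slc4a11 (0.969), the chromatin protein gene Hmga2 (0.963) and Olfml2b (0.961). Their differences were 0.27, 0.63, 0.64, 0.34 and 0.26. Each was smaller than that of Ak1, which was chosen because its difference stood out. These correlations take in the distance between the groups. With group means subtracted, different genes came first: Tm9sf2 (0.923), the actin-binding protein gene Cald1 (0.895), Rlf (0.889), Piwil1 (0.879) and Riok3 (0.878). Their differences lay between -0.05 and 0.10. In both rankings the genes were picked as the highest among all genes tested, over only 10 arrays. High values can come from that choice, so the correlations are a description with no test.

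The nearest genes to Ak1 on chromosome 2 differed little between the groups. On the lower-coordinate side, the sialyltransferase gene St6galnac6 (chr2:32599709-32620809) ends closest to Ak1 and differed by -0.06 (SE 0.083, limma adjusted p = 0.831). St6galnac4, of the same enzyme family, differed by 0.13 (SE 0.077, limma adjusted p = 0.547). On the other side Eng, the gene for the TGF-beta co-receptor endoglin (chr2:32646595-32682669), averaged 6.92 ± 0.092 in antisense arrays and 6.86 ± 0.11 in scrambled arrays (SD, n = 5 each). Fpgs, the gene for the enzyme that adds glutamate to folates, differed by -0.01, and Cdk9, the kinase gene of transcription elongation factor P-TEFb, by 0.03. Pip5kl1 lay under the filter level on average and was not tested. The groups overlapped for all 6 neighbours, and 0 of 5 tested passed (limma adjusted p from 0.547 to 0.961, and 0 had an unadjusted p under 0.05). The groups were apart for 3.92% of all genes and 1.53% passed, so counts of 0 among so few genes lie near the background.

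**Figure D4:**
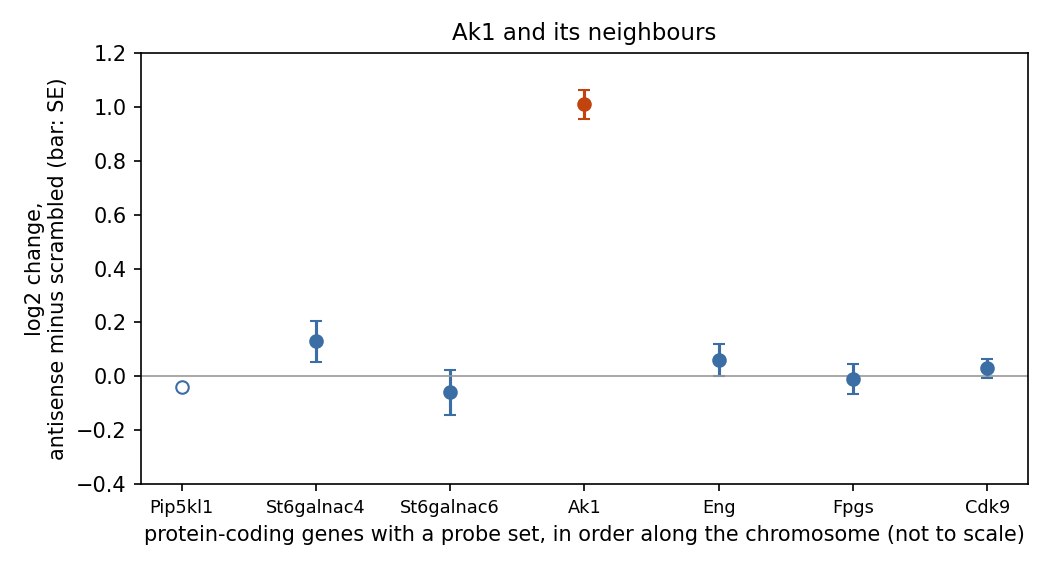
Log2 difference, antisense minus scrambled, of Ak1 and the 3 protein-coding genes with a probe set on each side of it, in their order along the chromosome; bars are SE and the open point was not tested. Ak1 stands at 1.01, and the neighbours lie between -0.06 and 0.13.

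Other genes of adenine nucleotide metabolism were read from 6 lists drawn up by function, in which 52 of 65 genes were tested. In limma 0 passed in either direction, with 8 at an unadjusted p under 0.05, where 1.53% of all genes passed and 12.9% had an unadjusted p under 0.05. With the replicate block 2 passed, both higher, Nme4 and Ada, where 3.05% of all genes passed. The median difference over the 52 genes was 0.021, against 0.0084 over all 12633 genes tested.

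Close relatives in nucleotide phosphorylation gave small values. Of 8 other adenylate and nucleoside monophosphate kinases 4 were tested and none passed (lowest limma adjusted p = 0.395). With 1.53% of all genes passing, a count of 0 among so few lies near the background. Ak8 lay under the filter level, and Ak6 shared its probe set with another gene and was not used. Cmpk1, the UMP and CMP kinase gene, differed by -0.09 with the antisense array lower in 5 of 5 pairs. Cmpk2, a mitochondrial pyrimidine kinase gene, differed by -0.08, and the guanylate kinase gene Guk1 averaged 9.81 ± 0.040 in antisense arrays and 9.81 ± 0.077 in scrambled arrays (SD, n = 5 each).

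The nucleoside diphosphate kinases, which recharge the other nucleotides from ATP, had 5 tested members. Nme4, the mitochondrial member, averaged 8.07 ± 0.077 in antisense arrays and 7.88 ± 0.073 in scrambled arrays (SD, n = 5 each). The groups did not overlap, which held for 3.92% of all genes. It differed by 0.19 (SE 0.049). The limma adjusted p was 0.0723, and 0.029 once replicate number was a block, where Nme4 rose. Nme2 and Nme7 differed by 0.03 and 0.04.

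Of the enzymes that interconvert AMP and other purines 19 of 22 were tested. Their differences ran both ways, from -0.14 to 0.25 with a median of 0.025. A difference above 0 was found for 14 of the 19, where 6964 of all 12633 genes had one. Ampd3, an AMP deaminase gene, differed by 0.22 (SE 0.071, limma adjusted p = 0.178), the purine phosphorylase gene Pnp by 0.11 with the antisense array higher in 5 of 5 pairs (limma adjusted p = 0.294), and Adssl1, the muscle adenylosuccinate synthase gene, by 0.19 (limma adjusted p = 0.30). Ada, the adenosine deaminase gene, named after its values were seen, read 4.74, 5.34, 5.08, 5.44 and 5.12 on antisense arrays, against 4.70, 4.96, 4.83, 5.19 and 4.81 on scrambled arrays. Its groups overlapped while each pair was higher in the antisense array. Ada differed by 0.25 (SE 0.12), with limma adjusted p-values of 0.417 without and 0.0413 with the block, where it rose.

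AMP-activated protein kinase, the sensor of AMP, and its upstream kinases had 12 tested genes. A difference above 0 was found for 6 of them, where 6964 of all 12633 genes had one. The catalytic subunit gene Prkaa2 differed by 0.22 on its brightest probe set (SE 0.091, limma adjusted p = 0.329) and by 0.01 on another. The subunit gene Prkab2 and the scaffold gene Cab39 differed by -0.09 and -0.06. None of the 12 passed, where 1.53% of all genes did, so this count lies near the background.

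Creatine kinases hold a parallel phosphate reserve. Ckb, the brain-type enzyme gene, averaged 5.79 ± 0.040 in antisense arrays and 5.57 ± 0.15 in scrambled arrays (SD, n = 5 each), a difference of 0.22 (SE 0.064, limma adjusted p = 0.136). With 1 array left out the limma adjusted p for Ckb ranged from 0.0276 to 0.27. It was under the threshold only without scrambled replicate 4, and in none of the other alternative fits. The mitochondrial Ckmt1 differed by 0.20, with the antisense array higher in 5 of 5 pairs for both, and the creatine transporter gene Slc6a8 by 0.05. Of 7 tested adenine nucleotide and related carriers none passed (lowest limma adjusted p = 0.275), where 1.53% of all genes passed. A count of 0 among so few genes lies near that share. Slc25a42 differed by 0.13 on its brightest probe set and by -0.16 on another, Slc25a17 by 0.09, and Slc25a5, a main ATP and ADP exchanger of the inner membrane, by -0.06.

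**Figure D5:**
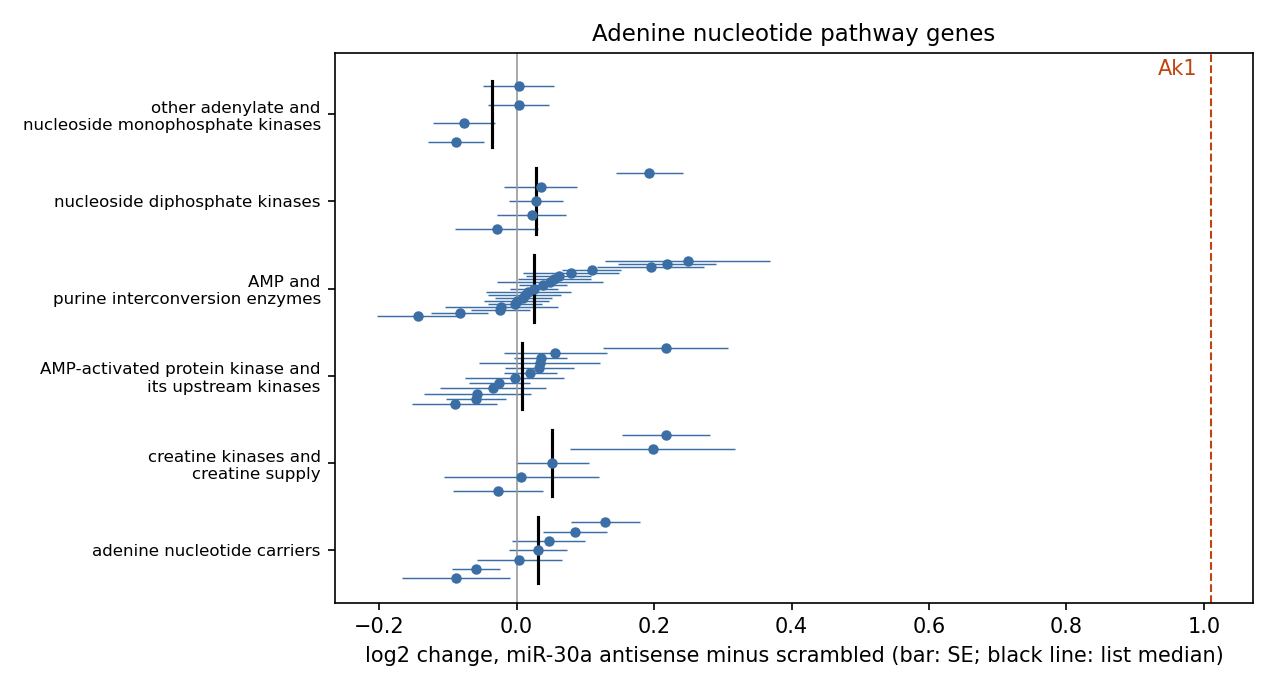
Log2 difference, antisense minus scrambled, of the 52 tested genes of 6 lists of adenine nucleotide metabolism. Points are genes with their SE, black lines list medians, and the dashed line the Ak1 difference of 1.01; the listed genes lie between -0.14 and 0.25.

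The arrays had medians from 5.21 to 5.24. Keratin genes of simple epithelia were bright in both groups. Krt8 averaged 13.76 in antisense arrays and 13.77 in scrambled arrays, and Krt18 13.70 in antisense arrays and 13.72 in scrambled arrays. All 11 measured hepatic epithelial markers passed the filter, and 3 of them had a difference above 0 (median -0.011). Over all 12633 genes tested 6964 had a difference above 0 (median 0.0084). An unadjusted limma p under 0.05 was found for 2 of the 11, where 12.9% of all genes had one. Among the 11, Ttr, the transthyretin gene, differed by -1.17 and fell with the replicate block (limma adjusted p = 0.0574 without and 0.000812 with it). Muscle markers were included because Ak1 is abundant in muscle: 4 of 6, Myod1 among them, lay under the filter level, and Mb and Myog differed by -0.05 and 0.00. Of 6 blood and macrophage markers 2 were tested and Cd68 rose by 0.39 (limma adjusted p = 0.0176), while the brighter Csf1r differed by 0.05 (limma adjusted p = 0.839) and Ptprc and Adgre1 lay under the filter level. The part of the Cd68 and Ttr differences in the Ak1 result was not tested. Of the mesenchymal and endothelial markers 4 of 6 and 3 of 5 were tested and none passed, where 1.53% of all genes passed. So few genes would be likely to give no call at that share. Des differed by 0.01, Acta2 by 0.06, Flt1 by -0.10 and Kdr by -0.02.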

How the data were processed

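Total RNA of 10 samples was hybridised to Affymetrix mouse arrays with 1 colour. The authors deposited log2 expression, 1 value for each probe set on each array (a scale taken from the range of the values, which reached 14.18). How the authors summarised and normalized the probes is not given in the sources used here. Since array medians were near equal, no further scaling was applied. The number of arrays limits the precision.

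Of 45101 probe sets, 34945 had 1 gene symbol in the platform annotation and 932 had several and were not used. Symbols were updated by gene identifier (34741 matched), and names, coordinates and sequences come from RefSeq tables of GRCm38.p6. For each gene the brightest probe set was kept, and genes with a mean under 4.559, the 40% level of all probe sets without array controls, were left out. The limma package, version 3.58.1, was run in R 4.3.3 on the 2 groups (two-sided moderated test from lmFit and eBayes), and p-values were adjusted by Benjamini and Hochberg over 12633 genes, or over 22744 probe sets, at a threshold of 0.05. The procedure was tested on simulated data. Python 3.11.15 with matplotlib 3.10.9 drew the figures.

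The members and lists were chosen with earlier results of these data known. The rule named every member probe set, of each pathway list the members past the threshold and the 3 of smallest p, 3 neighbours on each side of Ak1, the 5 genes most like Ak1 by each of 2 correlations, and the 2 brightest markers of each marker list. Nme4, Ada, Ttr and Cd68 were also discussed for their calls.

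Both groups carry replicate numbers 1 to 5. After group means were subtracted, the antisense and scrambled arrays of 1 number correlated over genes at 0.172, 0.377, 0.112, 0.152 and 0.335, against -0.312 to 0.231 between numbers. The ranges overlapped, and 7 of 10 arrays correlated best with the array of their own number in the other group. On these values alone the numbers were treated as a possible pairing, as the labels leave their meaning unsaid. The comparison has no replicate block, and the blocked fit is given where it changes a call. The alternatives were this block, quantile normalization, median centring, other filters, the mean of a gene's probe sets, an intensity trend, and leaving out each array.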

Additional observations from a re-analysis of the deposited data

Results flagged for a closer look

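Among 76 groups of 5 arrays, those of the member probe sets and of the named pathway and neighbour genes, 3 held an array far from the other 4, where chance gives about 1 in 20. Ak3 1423717_at read 9.67 on antisense array 2, below the other antisense arrays at 9.79 to 9.81. Ak5 1426339_at read 7.16 on antisense array 2, above the others at 6.88 to 6.91. The carrier gene Slc25a42 read 6.44 on antisense array 2, below the others at 6.60 to 6.62. All 3 are the same array, and in Ak3 and Ak5 it deviates in opposite directions.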

How the results depend on the processing

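Of 83 refits of the 5 members, 80 kept their direction and, for Ak3, Ak4, Ak5 and Ak7, their side of the threshold or, for Ak1, a value within 1 SD. The exceptions were Ak1, at 0.54 with the mean of its probe sets, an average that includes its dim one, and Ak3, which was above 0 without antisense replicate 2 (0.0067) or scrambled replicate 1 (0.014). With 1 array left out the differences ranged from 0.97 to 1.04 for Ak1, from -0.051 to 0.014 for Ak3, from -0.29 to -0.13 for Ak4, from 0.11 to 0.19 for Ak5 and from -0.065 to -0.011 for Ak7. Ak4 and Ak7 lay under the 60% filter and have no value there. The count of genes past the threshold was 385 with the replicate block and 314 with an intensity trend, against 193, and that of probe sets 385 and 266, against 156; the cause was not tested. With 1 array left out the counts ranged from 92 to 201 genes and from 68 to 141 probe sets, the gene count being 95, 92 and 123 without antisense replicate 3, 4 or 5 and 101 without scrambled replicate 3. Of 401 refits of 24 other named genes 388 kept direction and side. Guk1 was at -0.0052 with quantile normalization, and between -0.026 and 0.026 with 1 array left out. With the mean of probe sets Nme7 was at -0.061 and Slc25a42 at -0.016. With 1 array left out Nme7 ranged from -0.0027 to 0.072 and Fpgs from -0.042 to 0.023. None of these 4 genes was called. The replicate block, with the pairing taken from the numbers, changed the calls of Nme4 (0.19) and Ada (0.25) and of no other pathway, member or neighbour gene.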
